A study of Mus musculus with 6 samples.

Results

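Naive CD8 T cells live on signals from a small set of cytokines, and the receptors for those cytokines were examined here gene by gene in cells with and without CD103. The set comprised 10 genes, matched by symbol among the 55450 genes of the table: Il7r, Il2rg, Il2ra, Il15ra, Il4ra, Il21r, Il6ra, Il6st, Il27ra and Ifngr1. All 10 were abundant enough to be tested, among 13470 tested genes. RNA had been sequenced from 3 CD103KO (Itgae-/-) and 3 WT (C57BL/6) samples of CD8 T cells sorted from mouse lymph nodes as negative for Ly6C and CXCR3, which mark more differentiated CD8 T cells at the surface. Itgae encodes CD103, an integrin chain that binds E-cadherin. The labels give no age or sex, and do not say that the samples came from separate animals. The sample-to-sample spread behind every p-value may thus be in part technical.

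As background, interleukin-7 and interleukin-15 keep resting T cells alive in the lymph node. A cytokine receptor of this kind has no enzyme activity of its own: ligand brings its chains together, Janus kinases bound to their tails phosphorylate STAT factors, and these enter the nucleus. Chains are shared, so that the common gamma chain serves the receptors for interleukin-2, 4, 7, 15 and 21, and gp130 serves those for interleukin-6 and 27. Interferon-gamma binds a receptor of a related class.

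Libraries held 68292475 to 76044311 counts in CD103KO and 74438908 to 94347034 counts in WT, so that 1 count was worth 0.0104 to 0.0147 CPM (counts scaled to library size with TMM factors). Itgae itself was at 67.9, 67.9 and 61.1 CPM in CD103KO replicates 1, 2 and 3, against 491, 495 and 460 CPM in WT replicates 1, 2 and 3. The labelled cell type was met by its markers, with Cd8a at 1458 to 1506 CPM in CD103KO and 1438 to 1464 CPM in WT, and Cd4 at 0.0734 to 0.265 CPM in CD103KO and 0.0940 to 0.775 CPM in WT. WT replicates 1 and 2 stood apart in 1 respect: they carried reads of Xist, the RNA of the inactive X chromosome (66.9 and 79.7 CPM), and 0 counts of the Y-linked Ddx3y, while no more than 2 Xist counts were seen in any CD103KO library or in WT replicate 3. Genotype and Xist state thus overlap in part, and the edgeR fit was also run with a term for Xist reads, which leaves the CD103KO libraries set against WT replicate 3 alone.

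Promoter sequences from RefSeq (GRCm38.p6, 250 bases before to 50 after the transcript start) were available for 9 of the 10 genes, without Il27ra. Those of Il7r and Il2rg, the chains of the interleukin-7 receptor, and of Il2ra, the least abundant gene of the set, are shown because these genes are compared in level below. The Il7r window lies inside the annotated gene (9505788 to 9530176), downstream of its outermost start. Capitals mark matches, on either strand, to motifs of factor families that act on lymphoid receptor genes: CGGAAG and AGGAAG (ETS), TGTGGT (RUNX), TTCNNNGAA (STAT) and GTAAACA (forkhead). No marked match overlaps another.
Il7r, chr15:9529827-9530126, minus strand: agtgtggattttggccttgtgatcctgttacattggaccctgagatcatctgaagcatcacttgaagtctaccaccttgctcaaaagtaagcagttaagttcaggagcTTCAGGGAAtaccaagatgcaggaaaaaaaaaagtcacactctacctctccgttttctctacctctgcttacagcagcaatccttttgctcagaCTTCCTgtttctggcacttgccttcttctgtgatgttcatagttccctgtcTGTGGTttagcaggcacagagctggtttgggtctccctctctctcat
Il2rg, chrX:101268206-101268505, minus strand: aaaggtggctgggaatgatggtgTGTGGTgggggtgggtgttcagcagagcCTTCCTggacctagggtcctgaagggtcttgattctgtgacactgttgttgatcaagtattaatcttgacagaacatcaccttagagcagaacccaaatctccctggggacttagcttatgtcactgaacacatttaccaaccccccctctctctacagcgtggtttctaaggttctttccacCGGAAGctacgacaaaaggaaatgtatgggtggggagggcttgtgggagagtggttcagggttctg
Il2ra, chr2:11642542-11642841, plus strand: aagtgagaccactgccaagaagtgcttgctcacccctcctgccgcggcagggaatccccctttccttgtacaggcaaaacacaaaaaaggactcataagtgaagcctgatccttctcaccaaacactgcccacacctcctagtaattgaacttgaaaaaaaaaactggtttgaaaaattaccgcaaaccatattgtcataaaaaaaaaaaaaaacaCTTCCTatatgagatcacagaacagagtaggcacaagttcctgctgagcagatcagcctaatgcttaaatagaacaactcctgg

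Counted in bases from the start, the first base of the match was at -48 for ETS, 4 for RUNX and -142 for STAT in the Il7r window. Il2rg had ETS matches at -16 and -199 and a RUNX match at -227, and Il2ra had an ETS match at -34 and none of the other motifs. Of 32851 mouse promoter windows of the same length, 16.9% held CGGAAG, 35.4% AGGAAG, 16.8% TGTGGT, 8.30% TTCNNNGAA and 3.65% GTAAACA. Such matches describe letters and are not evidence of binding.

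The receptors ranked in a steep order, the common gamma chain far above the rest and the alpha chains for interleukin-2 and interleukin-15 far below it. Levels of different genes were compared as CPM per kb of merged exons. Il2rg stood highest, at 325 ± 8.62 in CD103KO and 322 ± 11.5 in WT (SD, n = 3 each), above 98.9% of tested genes. Il21r (73.7 ± 2.04 in CD103KO, 72.9 ± 3.50 in WT) and Il27ra (72.0 ± 1.55 and 72.9 ± 1.26) followed, and their ranges over the 6 libraries overlapped. Il7r came next with 60.3 ± 1.14 CPM per kb in CD103KO and 65.2 ± 2.00 in WT, below Il27ra in every library.

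Il6st (39.4 ± 5.16 in CD103KO, 42.9 ± 4.49 in WT), Il4ra (38.6 ± 1.73 and 39.8 ± 2.21) and Ifngr1 (37.5 ± 0.666 and 40.2 ± 3.61) formed a group in which each neighbour's range overlapped the next. Below them stood Il6ra, at 22.9 ± 1.21 CPM per kb in CD103KO and 21.2 ± 1.73 in WT. A wide gap separated these 8 genes from the last pair. Il15ra was at 0.820 ± 0.0441 CPM per kb in CD103KO and 0.945 ± 0.0821 in WT, and Il2ra at 0.655 ± 0.117 and 0.539 ± 0.0900. Averaged over the 6 libraries, Il2rg exceeded Il7r 5.15-fold and Il2ra 542-fold per kb. With the longest transcript as the length in place of merged exons, Il4ra and Ifngr1 changed places and the other 8 kept theirs. The ranges of Il27ra and Il7r then overlapped, with Il7r above Il27ra in WT replicate 2 alone (88.1 against 87.7).

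**Figure D1:**
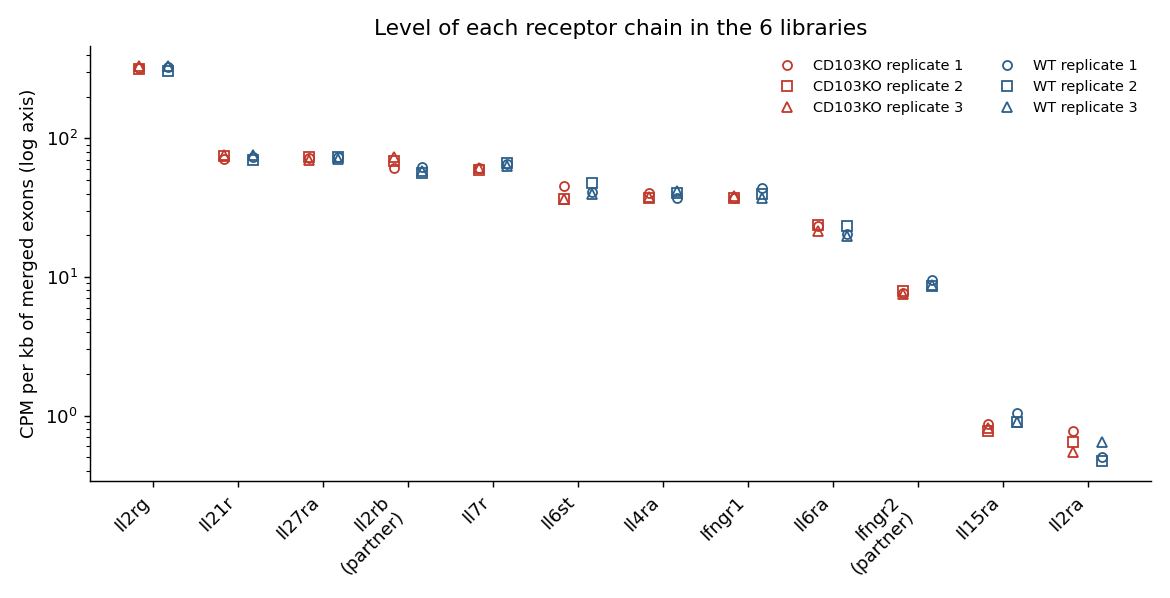
Level of each receptor chain in CPM per kb of merged exons (log axis) in every library, CD103KO in red on the left and WT in blue on the right of each gene, with the partner chains Il2rb and Ifngr2 added. Il2rg sits above 300 in every library, 7 genes from Il21r down to Il6ra lie between 19.9 and 76.4, and Il15ra and Il2ra lie at about 1 or below.

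None of the 10 genes passed the test between CD103KO and WT. EdgeR's quasi-likelihood test at an adjusted p of 0.05 called 0 of 10, as did DESeq2 and limma-voom, where 0.223%, 1.02% and 0.215% of the 13470 tested genes were called. At an unadjusted p under 0.05 edgeR gave 1 of the 10, Il7r, against 8.73% of all tested genes (4.2% lower and 4.53% higher in CD103KO). Log2 fold changes ran from -0.20 (Il15ra) to 0.28 (Il2ra), with 4 above 0 (49.0% of all tested genes) and a median of -0.03, against -0.0025 over all tested genes. For 7 of the 10 genes the 95% interval of the difference, not adjusted for the number of genes, lay wholly within 20% of the WT level.

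**Figure D2:**
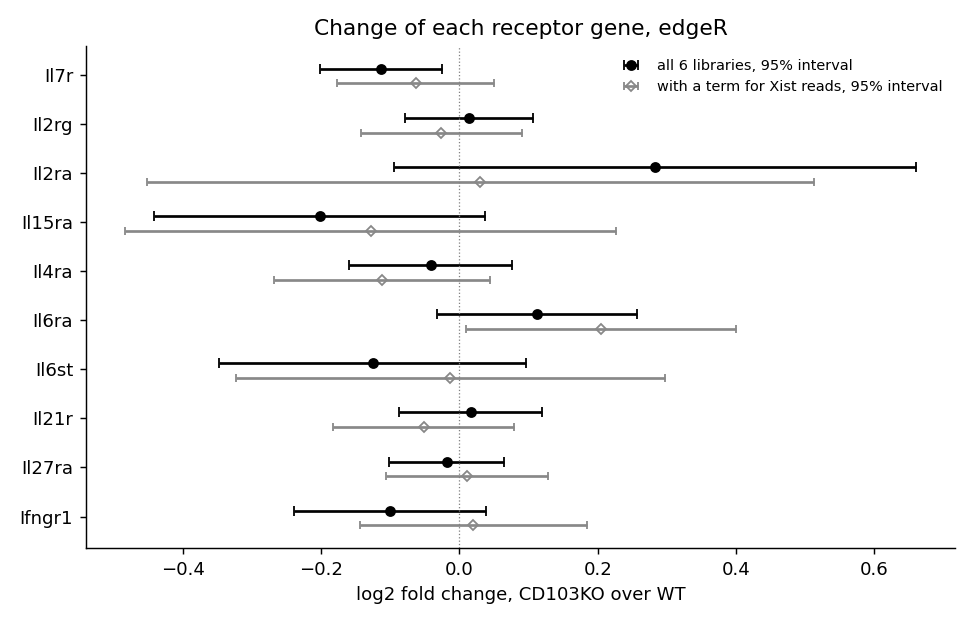
Log2 fold change of CD103KO over WT for each receptor gene from edgeR with its 95% interval, for all 6 libraries (filled circles) and with a term for Xist reads (open diamonds). With all 6 libraries the interval of Il7r alone lies below 0 and that of Il2ra is the widest, and with the term the interval of Il6ra alone lies above 0, in all cases before adjustment.

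Il7r (ENSMUSG00000003882.5, chromosome 15, 9505788 to 9530176, GRCm38, minus strand) encodes the alpha chain that binds interleukin-7, which naive T cells need to survive. It was at 283, 275 and 285 CPM in CD103KO replicates 1, 2 and 3, against 307, 312 and 294 CPM in WT replicates 1, 2 and 3. Every CD103KO library was lower than any WT library, by a small margin between CD103KO replicate 3 and WT replicate 3. The log2 fold change was -0.11 (SE 0.04, unadjusted p = 0.0173, adjusted p = 0.455, edgeR), a difference of -7.55% with an interval of -13.0% to -1.74%. With the Xist term it was -0.06 (SE 0.05, adjusted p = 0.788, edgeR), and the WT library nearest to CD103KO was the one without Xist reads. Il15ra was the only other gene of the set whose groups did not overlap, so that 2 of 10 did, both lower, against 14.2% of all tested genes in either direction, 7.36% lower and 6.82% higher.

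Il2rg (ENSMUSG00000031304.18, chromosome X, 101264378 to 101268255, minus strand) encodes the common gamma chain, whose loss in mice and humans leads to severe immunodeficiency. It was at 766, 762 and 799 CPM in CD103KO replicates 1, 2 and 3, against 777, 737 and 790 CPM in WT replicates 1, 2 and 3. The groups overlapped, and the WT libraries with Xist reads lay below the WT library without them for this X-linked gene. EdgeR put its log2 fold change at 0.01 (SE 0.04, adjusted p = 0.945), with an interval of -5.28% to 7.70%, and it was -0.03 with the Xist term (SE 0.05). Of the 60 values of the set, 1 was not whole, that of Il2rg in WT replicate 2, and a gene annotated over it on the same strand, Gm20489, had 5.5 counts over all libraries.

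Il4ra (ENSMUSG00000030748.9, chromosome 7, 125552120 to 125579474, plus strand) and Il21r (ENSMUSG00000030745.9, 125603429 to 125633570, plus strand) are neighbours 24.0 kb apart and encode the chains that bind interleukin-4 and interleukin-21. Il4ra was at 244, 224 and 227 CPM in CD103KO replicates 1, 2 and 3, against 224, 241 and 250 CPM in WT replicates 1, 2 and 3. Il21r was at 238, 247 and 251 CPM in the CD103KO libraries, against 242, 231 and 254 CPM in the WT libraries. For both genes each group spanned most of the other. Log2 fold changes were -0.04 for Il4ra (SE 0.05, adjusted p = 0.849, edgeR) and 0.02 for Il21r (SE 0.05, adjusted p = 0.943), with intervals of -10.5% to 5.44% and -5.84% to 8.65%. With the Xist term Il4ra was at -0.11 and Il21r at -0.05.

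Il2ra (ENSMUSG00000026770.5, chromosome 2, 11642807 to 11693193, plus strand) encodes CD25, the alpha chain that gives the interleukin-2 receptor high affinity and that resting CD8 T cells carry little of. It had 4.44, 3.67 and 3.11 CPM in CD103KO replicates 1, 2 and 3, against 2.87, 2.69 and 3.66 CPM in WT replicates 1, 2 and 3. CD103KO replicate 3 lay below WT replicate 3, which was the highest of the WT libraries. EdgeR put the log2 fold change at 0.28 (SE 0.17, adjusted p = 0.680), with the widest interval of the set, -6.30% to 58.0%, and at 0.03 with the Xist term (SE 0.21). Regulatory T cells are known for high CD25, and their defining factor Foxp3 was at 1.99, 1.67 and 2.33 CPM in CD103KO replicates 1, 2 and 3, against 1.62, 1.65 and 2.13 CPM in WT replicates 1, 2 and 3. The 8 markers of CD4 and regulatory T cells summed to 54.2 to 58.4 CPM in CD103KO and 54.0 to 55.1 CPM in WT, with 0 of 8 called by edgeR (1 at an unadjusted p under 0.05, and 1 by DESeq2, Ikzf2). Of all tested genes, 8.73% had an unadjusted p under 0.05 with edgeR and DESeq2 called 1.02%. The part of such T cells in the level of Il2ra was not tested.

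Il15ra (ENSMUSG00000023206.16, 11705290 to 11734317, plus strand) starts 12.1 kb beyond Il2ra and encodes the chain that binds interleukin-15 and, on other cells, presents it to T cells. Its levels were 3.85, 3.46 and 3.62 CPM in CD103KO replicates 1, 2 and 3, against 4.62, 3.99 and 3.99 CPM in WT replicates 1, 2 and 3. All CD103KO libraries lay below all WT libraries, yet edgeR made no call (log2 fold change -0.20, SE 0.11, adjusted p = 0.641), with an interval of -26.3% to 2.64% and a log2 fold change of -0.13 with the Xist term. Both alpha chains rested on 215 to 382 counts per library, for which counting error alone is 6.17% for Il2ra and 5.71% for Il15ra.

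Il6ra (ENSMUSG00000027947.11, chromosome 3, 89864059 to 89913196, minus strand) encodes the chain that binds interleukin-6, and Il6st (ENSMUSG00000021756.12, chromosome 13, 112464070 to 112510086, plus strand) encodes gp130, the chain that signals. Il6ra was at 202, 206 and 186 CPM in CD103KO replicates 1, 2 and 3, against 178, 200 and 172 CPM in WT replicates 1, 2 and 3. Il6st was at 503, 404 and 403 CPM in the CD103KO libraries, against 455, 533 and 441 CPM in the WT libraries. CD103KO replicate 1 was the high library of its group for Il6st and WT replicate 2 that of WT, so that the groups overlapped for both genes. With SDs of 13.1% of the mean in CD103KO and 10.4% in WT, against a counting error of 0.528%, Il6st varied the most of the 8 abundant genes.

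The log2 fold change was 0.11 for Il6ra (SE 0.06, adjusted p = 0.668, edgeR), with an interval of -2.23% to 19.5%. For Il6st it was -0.13 (SE 0.10, adjusted p = 0.749), with an interval of -21.4% to 6.91%. With the Xist term Il6ra was at 0.20 (SE 0.08, unadjusted p = 0.0420, adjusted p = 0.654, edgeR) and Il6st at -0.01. Il6ra was then the 1 gene of 10 at an unadjusted p under 0.05, against 7.45% of all tested genes, and 0 of 10 were called, against 0.111%. An antisense gene within Il6ra, Gm42809, had 447 counts over all libraries against 89090 for Il6ra, and the strand setting of the counting is not given in the sources used here.

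Il27ra (ENSMUSG00000005465.9, chromosome 8, 84030294 to 84042589, minus strand), the receptor chain for interleukin-27, spanned the narrowest range of the set, 97.0% to 102% of its mean over the 6 libraries. Its levels were 253, 256 and 246 CPM in CD103KO replicates 1, 2 and 3, against 258, 257 and 250 CPM in WT replicates 1, 2 and 3. The groups overlapped. EdgeR put the log2 fold change at -0.02 (SE 0.04, adjusted p = 0.917), with an interval of -6.80% to 4.58%, and at 0.01 with the Xist term.

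Ifngr1 (ENSMUSG00000020009.13, chromosome 10, 19591949 to 19610229, plus strand) encodes the chain that binds interferon-gamma. It was at 105, 106 and 109 CPM in CD103KO replicates 1, 2 and 3, against 126, 113 and 105 CPM in WT replicates 1, 2 and 3. WT replicate 3 lay among the CD103KO libraries and the WT libraries with Xist reads above them. The log2 fold change was -0.10 (SE 0.06, adjusted p = 0.693, edgeR) and 0.02 with the Xist term (SE 0.07). The term itself had an unadjusted p of 0.0479 for Ifngr1 (edgeR, adjusted p = 0.583), the only one of the 10 genes under 0.05, against 8.47% of all tested genes, and the term was called for 0 of 10, against 0.0817%. For 7 of the 10 genes the distance of WT replicate 3 from the CD103KO average was smaller than from the average of WT replicates 1 and 2. No share over all tested genes is given beside this count, and the CD103KO average rests on more libraries. The count thus does not set the receptor genes apart from other genes.

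**Figure D3:**
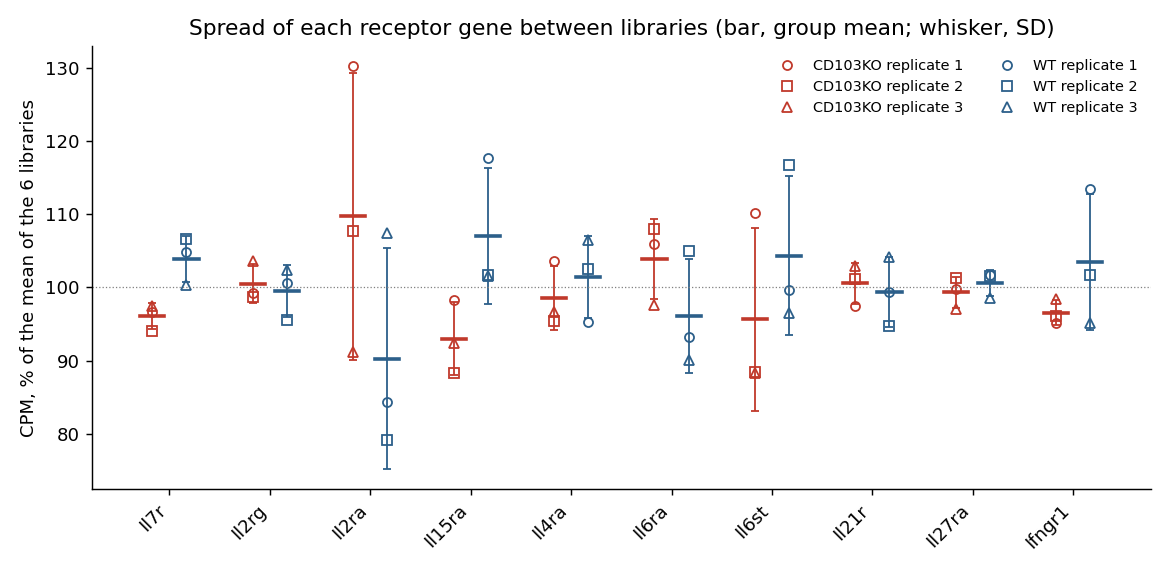
CPM of each receptor gene in every library as a percentage of its mean over the 6 libraries, CD103KO in red on the left and WT in blue on the right, with the group mean (bar) and SD (whisker, n = 3). Groups are apart for Il7r and Il15ra, while Il27ra spans 97.0% to 102% and Il2ra 79.1% to 130%.

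The balance between chains of a receptor was compared as the ratio of their CPM per kb within each library, for 8 pairs, with an exact two-sided permutation test for which 0.1 is the smallest p that 3 against 3 libraries can give. No pair passed, and none could have. Il7r over Il2rg was 0.189, 0.185 and 0.183 in CD103KO replicates 1, 2 and 3, against 0.202, 0.217 and 0.190 in WT replicates 1, 2 and 3 (log2 difference -0.13, exact permutation p = 0.1, adjusted over the 8 pairs 0.2). Gamma chain transcripts thus exceeded those of the alpha chain in every library. Il21r over Il2rg lay at 0.223 to 0.232 in CD103KO and 0.224 to 0.231 in WT (log2 difference 0.0025, exact permutation p = 0.9), the closest pair.

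Il6ra over Il6st was 0.516, 0.655 and 0.593 in CD103KO replicates 1, 2 and 3, against 0.501, 0.482 and 0.501 in WT replicates 1, 2 and 3. The ratio was steadier in WT than either chain was, and all CD103KO libraries lay above it (log2 difference 0.24, exact permutation p = 0.1, adjusted 0.2), CD103KO replicate 1 by little. Il15ra over Il2rb, the beta chain shared by the receptors for interleukin-2 and 15, was 0.0142, 0.0113 and 0.0110 in the CD103KO libraries, against 0.0168, 0.0159 and 0.0155 in the WT libraries (log2 difference -0.41, exact permutation p = 0.1, adjusted 0.2). Ifngr1 over Ifngr2, the second chain of the interferon-gamma receptor, was 4.69 to 5.09 in CD103KO and 4.20 to 4.65 in WT (log2 difference 0.12, exact permutation p = 0.1, adjusted 0.2). The pairs Il4ra with Il2rg, Il2ra with Il2rg and Il27ra with Il6st overlapped between groups, with log2 differences of -0.06, 0.26 and 0.11 (exact permutation p of 0.5, 0.2 and 0.5).

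**Figure D4:**
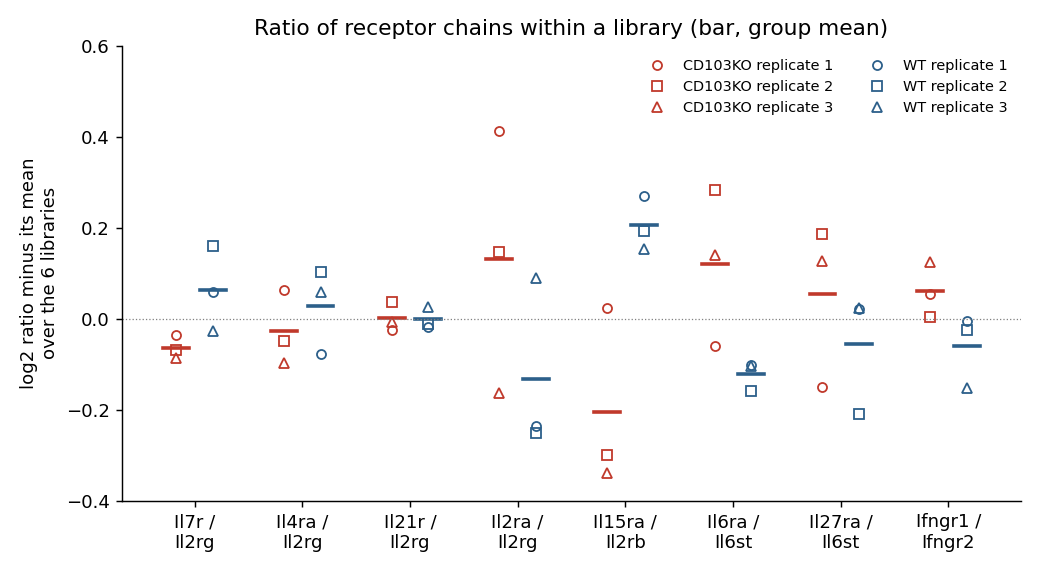
Log2 ratio of the CPM per kb of paired receptor chains in every library, minus its mean over the 6 libraries, CD103KO in red on the left and WT in blue on the right, with group means as bars. Groups are apart for Il7r with Il2rg, Il15ra with Il2rb, Il6ra with Il6st and Ifngr1 with Ifngr2. No pair passes the permutation test, and none could with 3 libraries per group.

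The partner chains Il2rb and Ifngr2, outside the set, did not pass either. Il2rb was at 262, 295 and 317 CPM in CD103KO replicates 1, 2 and 3, against 265, 241 and 248 CPM in WT replicates 1, 2 and 3, with overlapping groups (log2 fold change 0.21, SE 0.07, unadjusted p = 0.0127, adjusted p = 0.437, edgeR). With the Xist term the log2 fold change of Il2rb was 0.23. Memory and effector CD8 T cells carry more of this chain, and their 11 markers summed to 509 to 542 CPM in CD103KO and 471 to 532 CPM in WT, with 0 of 10 tested called by edgeR or DESeq2. At an unadjusted p under 0.05 edgeR gave 1 of 10, against 8.73% of all tested genes. It was Ly6c2, which encodes a Ly6C protein, the antigen of the sort gate. It lay at 31.8 to 39.7 CPM in CD103KO and 16.6 to 30.7 CPM in WT, with WT replicate 3 the highest of WT, higher in every CD103KO library (log2 fold change 0.65, adjusted p = 0.430, edgeR, and 0.22 with the Xist term). The chemokine gene Ccl5 was lower in CD103KO with that term (log2 fold change -2.66, edgeR, against -1.36 without the term). It was at 34.9 CPM in WT replicate 3 and 2.91 to 6.46 CPM in the other 5 libraries, so its change rests on WT replicate 3. The median log2 fold change of the 10 tested markers was 0.07, and -0.03 with the Xist term. The part of such cells in Il2rb was not tested. Ifngr2 was at 28.7, 30.0 and 28.3 CPM in the CD103KO libraries, against 35.7, 32.4 and 33.2 CPM in the WT libraries, all lower in CD103KO (log2 fold change -0.22, SE 0.06, unadjusted p = 0.0053, adjusted p = 0.367, edgeR). With the Xist term the log2 fold change of Ifngr2 was -0.19.

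Among 31 other chains of the type I and type II cytokine receptor families, 16 were tested. EdgeR, DESeq2 and limma-voom called 0 of the 16, against 0.223%, 1.02% and 0.215% of all tested genes. At such shares, 0 calls in a short list says little about its genes. At an unadjusted p under 0.05 edgeR gave 2 higher, Il2rb and the interleukin-12 receptor chain Il12rb1 (11.5 ± 0.215 CPM in CD103KO, 10.2 ± 0.0682 CPM in WT, n = 3 each), and 1 lower, Ifngr2. Over all tested genes the shares at that threshold were 4.53% higher and 4.2% lower. The median log2 fold change of the 16 was -0.07, and 0.05 with the Xist term. The 15 not tested included Il13ra1, the alternative partner of Il4ra outside lymphocytes. Ligand transcripts were scarce. Of 13, Ebi3 and Ifng alone were tested, at 0.141 ± 0.0415 and 0.227 ± 0.101 CPM in CD103KO and 0.151 ± 0.0360 and 0.240 ± 0.263 CPM in WT (n = 3 each), with log2 fold changes of -0.07 and -0.06. With the Xist term these were -0.09 for Ebi3 and -1.24 for Ifng (adjusted p = 0.683, edgeR), and limma-voom gave 0.43 for Ifng, so that its direction depends on the setting. Neither passed with edgeR (adjusted p of 0.975 and 0.986), DESeq2 or limma-voom, nor at an unadjusted p under 0.05. Il13, Tslp and Il9 had 0 counts in every library, which allows up to 0.0313 to 0.0440 CPM at 3 counts per library, for counting error only.

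Downstream of the receptors, 11 Janus kinase and STAT genes were all tested, with a median log2 fold change of 0.002. EdgeR, DESeq2 and limma-voom called 0 of these 11 genes, against 0.223%, 1.02% and 0.215% of all tested genes. At an unadjusted p under 0.05 edgeR gave Jak3, the kinase of the common gamma chain, at 114, 108 and 109 CPM in CD103KO replicates 1, 2 and 3 against 125, 134 and 112 CPM in WT replicates 1, 2 and 3 (log2 fold change -0.17, and -0.02 with the Xist term), and Stat2, a factor of the type I interferon response (0.26, and 0.05 with the term). They made 2 of 11 at that threshold, against 8.73% of all tested genes. For both genes WT replicate 3 was the WT library nearest to the CD103KO mean. Stat3, Stat5a and Stat5b lie on the chromosome of Itgae, 27.6 to 27.7 Mb from it, with log2 fold changes of -0.02, -0.03 and 0.03. Of other genes named in this report, Ccl5 (10.4 Mb), Il13 (19.5 Mb), Col1a1 (21.8 Mb), Ccr7 (26.0 Mb), Pecam1 (33.5 Mb) and Osm (68.8 Mb) also lie there. The part of that position in their levels was not tested. None of the 10 receptor genes is on that chromosome.

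Feedback inhibitors and target genes of STAT5, the factor activated by interleukin-2, 7 and 15, were also tested, and none passed. Of 11 tested, 8 had negative log2 fold changes (49.0% of all tested genes were above 0), with a median of -0.16. EdgeR, DESeq2 and limma-voom called 0 of 11, against 0.223%, 1.02% and 0.215% of all tested genes. At an unadjusted p under 0.05 edgeR gave 3 of 11, all lower, against 4.2% of all tested genes lower at that threshold. These were Socs1, an inhibitor of Janus kinases, the cytokine Osm (8.93 ± 0.780 CPM in CD103KO, 10.3 ± 0.312 CPM in WT, n = 3 each) and the kinase gene Pim1 (log2 fold change -0.16). Socs1 was at 16.5, 18.4 and 18.7 CPM in CD103KO replicates 1, 2 and 3, against 24.3, 19.1 and 19.8 CPM in WT replicates 1, 2 and 3, lower in every CD103KO library (log2 fold change -0.24). With the Xist term the median was -0.06, and without WT replicate 1 it was -0.03. Bcl2, the survival gene that interleukin-7 maintains, was at 165, 193 and 166 CPM in CD103KO replicates 1, 2 and 3, against 200, 177 and 138 CPM in WT replicates 1, 2 and 3, so that WT held both extremes. Its log2 fold change was 0.03 (adjusted p = 0.969, edgeR), and 0.34 with the Xist term (unadjusted p = 0.0130, adjusted p = 0.584).

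Interferon-gamma target genes had a median log2 fold change of 0.07, and -0.01 with the Xist term. Of 12, 8 were above 0, against 49.0% of all tested genes. EdgeR, DESeq2 and limma-voom called 0 of 12, against 0.223%, 1.02% and 0.215% of all tested genes. At an unadjusted p under 0.05 edgeR gave 0, against 8.73%. Of the 12, Gbp7 and Ciita had the smallest p. Gbp7, a guanylate-binding protein gene, was at 149 ± 11.3 CPM in CD103KO and 133 ± 11.5 CPM in WT. Ciita, the activator of MHC class II genes, was at 0.807 ± 0.0520 and 0.562 ± 0.161 CPM (n = 3 each). Transcription factors that act on Il7r numbered 10, all tested, with a median of 0.01. EdgeR, DESeq2 and limma-voom called 0 of these 10, and edgeR gave 0 at an unadjusted p under 0.05, beside the same shares of all tested genes. Foxp1, which opposes the activator Foxo1 at Il7r, was at 205 ± 10.7 CPM in CD103KO and 191 ± 10.2 CPM in WT, and Runx1 at 38.7 ± 3.22 and 42.5 ± 2.54 CPM (n = 3 each). Their log2 fold changes were 0.11 and -0.14, and with the Xist term 0.18 for Foxp1 (unadjusted p = 0.0389, adjusted p = 0.649, edgeR) and -0.23 for Runx1 (unadjusted p = 0.0362, adjusted p = 0.641).

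**Figure D5:**
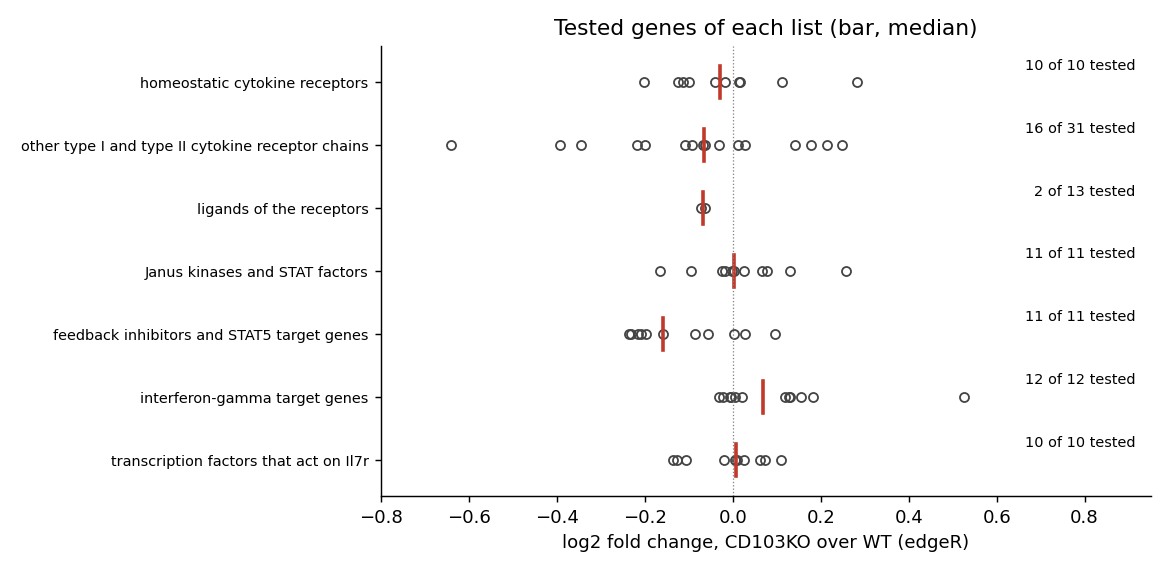
Log2 fold change of CD103KO over WT (edgeR) for every tested gene of the receptor set and of 6 lists around it, with each list's median as a bar. Medians lie between -0.16 for feedback inhibitors and STAT5 target genes and 0.07 for interferon-gamma target genes, and 0 genes in these lists were called.

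Markers of other cells were measured beside these results, since B cells also carry Il4ra and Il21r. The 10 B cell markers summed to 32.3 to 38.4 CPM in CD103KO and 26.0 to 29.3 CPM in WT. All 10 had positive log2 fold changes, against 49.0% of all tested genes, and these ran from 0.01 to 2.58. The sum thus rises less than many of the markers do. EdgeR called 3 of them, Cd79a, Ms4a1 and Fcer2a, against 0.223% of all tested genes. Cd79a, a component of the B cell receptor, was at 2.14, 2.36 and 3.08 CPM in CD103KO replicates 1, 2 and 3, against 0.748, 0.710 and 0.818 CPM in WT replicates 1, 2 and 3, and none of these markers was at 0. DESeq2 called 6 of the 10, against 1.02% of all tested genes. The median log2 fold change was 1.89, and 1.45 with the Xist term, under which edgeR called 0 of the 10. The part of B cells in Il4ra, Il21r and Ciita was not tested. Markers of NK and innate lymphoid cells (2.15 to 3.10 CPM in CD103KO, 2.71 to 3.01 CPM in WT, with 0 of 5 called) and of myeloid and dendritic cells (44.2 to 45.7 and 42.0 to 50.1 CPM, 0 of 6 tested called) overlapped between groups in their sums, as did those of lymph node stroma (127 to 167 and 137 to 151 CPM, 0 of 3 tested called). Nearly all of the stroma sum came from Pecam1, since Cdh5 and Col1a1 were scarce and the other 5 too scarce to test. That sum thus describes Pecam1 and not stroma as a whole. Of the stroma markers, the endothelial gene Cdh5 was lower in every CD103KO library (0.217 ± 0.0182 CPM in CD103KO, 0.407 ± 0.0706 CPM in WT, n = 3 each, adjusted p = 0.440, edgeR) and the collagen gene Col1a1 higher (0.428 ± 0.00745 and 0.293 ± 0.137 CPM, adjusted p = 0.723). The 11 naive CD8 T cell markers summed to 10438 to 10790 CPM in CD103KO and 10611 to 10775 CPM in WT, with 0 called by edgeR, DESeq2 or limma-voom. At an unadjusted p under 0.05 edgeR gave 2 of them, the lymph node homing receptor Ccr7 (443 ± 6.37 CPM in CD103KO, 486 ± 5.96 CPM in WT) and the T cell receptor component Cd3g (793 ± 10.7 and 740 ± 21.8 CPM, n = 3 each), and neither overlapped between groups. Over all tested genes, 8.73% passed that threshold and 14.2% did not overlap between groups. Ncr1, a receptor of NK cells, was at 0.187 ± 0.0391 CPM in CD103KO and 0.196 ± 0.0905 CPM in WT (n = 3 each), and Siglech and Pdpn were at 0 counts. In bulk samples, fewer cells of a type and less RNA per cell cannot be told apart.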

How the data were processed

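Polyadenylated RNA of 6 sorted samples was measured. The authors deposited expected counts per gene and library, not normalized. The submitters' processing notes name RSEM, STAR 2.7.0f, cutadapt 1.18 and bcl2fastq 2.20, with the builds GRCm38 and mm10, and per the labels' protocols the library kit was stranded. How strand and multiply mapped reads were handled, and by which RSEM release, is not given in the sources used here. Of the deposited values, 6.48% had a fractional part. Rounded values entered the tests. All 55450 identifiers matched GENCODE M21 on GRCm38, the source of coordinates and lengths.

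CD103KO was compared with WT in R 4.3.3 by edgeR 4.0.16 (filterByExpr, minimum count 10, TMM, quasi-likelihood F test on group, Benjamini-Hochberg at 0.05 over 13470 genes). The standard error is the log2 fold change over the square root of F. Alternatives used DESeq2 1.42.0, limma-voom (limma 3.58.1), other scalings and filters, unrounded counts, the replicate number as a block, a term for libraries with Xist above 1 CPM, only the libraries without Xist reads, and each library left out. SciPy 1.17.1 gave the permutation tests and matplotlib 3.10.9 the plots.

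The receptor genes, lists and tests were chosen with earlier results of these data known. Named are all 10 receptor genes, their partner chains, for each pathway list its called genes or the 2 of smallest p, and defining markers of cell types, of which 1 is not reported here. Il12rb1, Pim1, Bcl2, Stat3, Stat5a, Stat5b, Ikzf2, Ly6c2, Ccl5, Cdh5, Col1a1, Pecam1, Ccr7, Cd3g, Ms4a1, Fcer2a and genes at 0 counts or overlapping a receptor gene were named after their values were seen.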

Additional observations from a re-analysis of the deposited data

How the results depend on the processing

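Across 16 alternatives, 0 of the 10 receptor genes and 0 genes of the 6 pathway lists were called, and of 160 values of the receptor genes 148 kept their direction. Signs turned for 4 genes. Log2 fold changes with a term for Xist reads, and then with only the libraries without Xist reads, were 0.0204 and 0.0208 for Ifngr1, -0.0515 and -0.0511 for Il21r, 0.0106 and 0.0111 for Il27ra, and -0.0262 and -0.0257 for Il2rg. With each library left out, Il21r ran from -0.0201 to 0.0513, Il2rg from -0.0166 to 0.0348, Il2ra from 0.14 to 0.43 (lowest without CD103KO replicate 1, highest without WT replicate 3), Il6st from -0.24 (without CD103KO replicate 1) to -0.04 (without WT replicate 2), Ifngr1 from -0.16 (without WT replicate 3) to -0.03 (without WT replicate 1), Il15ra from -0.24 (without CD103KO replicate 1) to -0.13 (without WT replicate 1), Il6ra from 0.07 (without WT replicate 3) to 0.18 (without WT replicate 2), Il4ra from -0.08 to -0.01, Il27ra from -0.04 to -0.0043, Il7r from -0.14 to -0.10, the log2 difference of Il21r over Il2rg from -0.0151 to 0.0164, and the number of receptor genes with a positive log2 fold change from 2 to 4, with 2 without CD103KO replicate 3 and 2 without WT replicate 2.

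Calls over all genes numbered 30, against 137 with DESeq2, 112 with no filter, 15 with the Xist term and 13 with only the libraries without Xist reads, where WT replicate 3 is assumed to vary like the CD103KO libraries. With each library left out they ran from 19 (without CD103KO replicate 2) to 59 (without CD103KO replicate 1), with 52 without WT replicate 3. The causes were not tested. With the longest transcript as length, 2 of the 10 genes changed rank. Replicate numbers are not stated to pair the samples. Deviations from the group means correlated at -0.20, -0.0053 and -0.0299 between same-numbered libraries. With 3 libraries per group these values cannot tell whether samples were paired. With the replicate block 24 genes were called over all genes and 0 receptor genes. Counting error was 5.71% for Il15ra, against SDs of 5.37% of the mean in CD103KO and 8.69% in WT, and 6.17% for Il2ra, against 17.9% and 16.7%. Chain ratios and the level order were not run with the Xist term.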
